A study of Mus musculus with 12 samples.

Results

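Chchd10 and 5 genes that act with it inside the mitochondrial intermembrane space were followed in mouse gastrocnemius, a calf muscle, without the coactivators PGC-1alpha and PGC-1beta. The 5 were its paralogue Chchd2, the cristae genes Chchd3, Immt and Opa1, and the import gene Chchd4. Chchd10 was chosen by its log2 ratio in the double knockout, known to be low from earlier results of these data. The others were taken for their roles, to ask whether the fall of Chchd10 was shared. The 6 genes were measured by 12 of the 40928 probes, and all 6 were among the 11673 genes tested, out of 19437 genes with a probe of 1 symbol. Only ratios between 2 RNA samples were deposited, so no expression level of any gene is given. In whole muscle, fewer cells of a type and less RNA per cell cannot be told apart.

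The inner mitochondrial membrane folds into cristae, which hold the respiratory chain. The MICOS complex, with mitofilin (Immt) and the twin CX9C protein CHCHD3 among its subunits, shapes the neck of each fold, and the dynamin-like GTPase OPA1 fuses inner membranes and narrows that neck. Twin CX9C proteins are made in the cytosol and are trapped in the intermembrane space when CHCHD4, also called MIA40, forms disulfide bonds in them. CHCHD10 and CHCHD2 are such proteins, and in humans CHCHD10 is abundant in muscle and heart and is mutated in families with motor neuron disease and mitochondrial myopathy. The PGC-1 coactivators, products of Ppargc1a and Ppargc1b, drive many nuclear genes of mitochondria in muscle.

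The mice were male, 12 weeks old and of the strain C57BL6/J x sv129, and their RNA was read on 12 arrays of 2 dyes. By their titles, 3 arrays set the double knockout (PGC-1alpha-/- beta f/f/Mlc1fCre), 3 the alpha knockout (PGC-1alpha -/-) and 3 the beta knockout (PGC-1beta f/f/Mlc1fCre) against mice with the floxed PGC-1beta gene and no Cre (PGC-1beta f/f), and 3 compared the double with the alpha knockout on the same array. Below these are the double, alpha, beta and direct arrays, with their replicate numbers. PGC-1alpha was absent from the whole body, whereas the PGC-1beta gene was to be deleted where the muscle promoter Mlc1f drives Cre, which leaves other cells of the muscle with it. How many mice stand behind an array is not stated. A log2 ratio is that of the double, alpha or beta knockout over floxed RNA, or of the double over the alpha knockout, with the array's median gene set to 0, and an error is an SD over arrays.

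Groups follow the titles, which disagreed with the genotype labels of the channels on 6 of 12 arrays. Ppargc1a had log2 ratios from -1.93 to -0.86 on the double arrays and from -2.56 to -0.52 on the alpha arrays. It was also below 0 on beta 1 to 3, at -0.07, -0.47 and -0.97. On the direct arrays, where both genotypes lack PGC-1alpha by the titles, it was above 0, at 0.99, 0.53 and 0.69. Ppargc1b had ratios of 0.14 to 0.36 on the double arrays and of 0.62 and 0.91 on beta 1 and beta 2, so these ratios do not show its deletion. Its ratios were below 0 on beta 3, at -0.75, and on the direct arrays, at -0.15, -1.45 and -1.92, and above 0 on the alpha arrays, at 0.71 to 1.35. Whether its probes cover the deleted exons is unknown. Beta 3 had undefined ratios at 27.6% of probes and stood apart from the other beta arrays, and the authors' deposited beta means had left it out. It was left out of the fit and is given as a value, with double 3 and direct 3, at 21.5% and 23.7% undefined, kept. Of the muscle markers, 6 of 6 were on the array and 3 were tested, with medians of 0.71, 0.78, 0.56 and 1.37 on the double, alpha, beta and direct arrays. The medians of the red blood cell markers were 0.45, 0.91, 1.20 and -0.06, and those of the endothelial markers were -0.35, 0.39, 0.44 and -1.21. Their part in the results below was not tested.

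The stretches upstream of 3 of the twin CX9C genes are shown first, because the comparison asks whether these genes moved together. A promoter is taken as the 250 bases before a start in RefSeq, build GRCm38.p6. Chchd10 lies on chromosome 10 (75933130 to 75937750, plus strand), Chchd3 and Chchd4 on the minus strand of chromosome 6 (32792207 to 33060273 and 91464276 to 91473423), and Chchd2 on chromosome 5 (129881161 to 129887470). The window of Chchd10 is chr10:75932880-75933129, that of Chchd4 is chr6:91473424-91473673 and that of Chchd3 is chr6:33060261-33060510, whose end lies just inside the annotated gene. Letters in capitals mark a match to CCGGAAG, the core read by ETS factors such as GABP.
Chchd10: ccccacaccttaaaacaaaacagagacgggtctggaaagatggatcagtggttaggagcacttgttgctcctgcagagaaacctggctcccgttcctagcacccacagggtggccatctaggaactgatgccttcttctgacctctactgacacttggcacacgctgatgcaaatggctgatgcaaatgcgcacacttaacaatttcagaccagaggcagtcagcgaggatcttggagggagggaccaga
Chchd4: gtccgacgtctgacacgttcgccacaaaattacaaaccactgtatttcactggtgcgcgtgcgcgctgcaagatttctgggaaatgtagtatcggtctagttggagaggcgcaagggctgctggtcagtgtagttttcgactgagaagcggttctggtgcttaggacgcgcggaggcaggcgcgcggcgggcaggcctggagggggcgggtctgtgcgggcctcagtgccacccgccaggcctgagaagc
Chchd3: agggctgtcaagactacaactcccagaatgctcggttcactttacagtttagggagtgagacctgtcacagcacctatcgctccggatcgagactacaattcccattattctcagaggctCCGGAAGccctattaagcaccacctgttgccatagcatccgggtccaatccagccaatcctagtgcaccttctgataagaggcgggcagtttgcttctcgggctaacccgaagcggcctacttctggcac

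Of the 5 motifs searched on both strands, Chchd10 and Chchd4 held none in these windows. The ETS core stood 130 to 124 bases before the start used for Chchd3. It was also in the window of Immt (chr6:71831070-71831319), at 71831201 to 71831207, and there inside the annotated gene (71831091 to 71875266), because the start used lies downstream of the gene's first base. The core was in 6.91% of 32851 promoters. Opa1 (chromosome 16, 29579281 to 29663127) held the NRF1 motif GCGCATGCG at 29579275 to 29579283, across its annotated start, and again on the other strand 1 base further on, as a palindrome does. That motif was in 1.45% of promoters. The other motifs were the ERR element TCAAGGTCA, in 0.387% of promoters, the YY1 site AAGATGGCG, in 0.606%, and the cAMP response element TGACGTCA, in 1.55%. Apart from the pair in Opa1, no matches overlapped in the windows of the 5 genes with an entry. A match describes letters and not a bound site.

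Chchd10 was the lowest member on the double arrays, and the only one among the 10 lowest of all 11673 genes there. The deposited ratios of its probe A_51_P269084, which the authors' deposited table describes as Nur77 downstream gene 2, were 0.087, 0.138 and 0.126 on double 1 to 3. The log2 ratios were -3.36, -2.90 and -2.95, a mean of -3.07 ± 0.26 (SD, n = 3) or 8.39-fold lower than in floxed muscle, and Chchd10 ranked 9 from the lowest. These values led to its choice and are given with no test. The 3 double arrays lay close together and none overlapped the other arrays against floxed RNA.

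On the alpha arrays the log2 ratios of Chchd10 were -0.00, -0.03 and 0.61, with a mean of 0.19 ± 0.36 (SD, n = 3). On beta 1 and beta 2 they were 0.13 and 0.44, with a mean of 0.28 ± 0.22 (SD, n = 2). The alpha mean lay within its spread of 0, and beta 1 and beta 2 were both above 0. Beta 3 read -2.25, which is the 15.9 percentile of that array, and all 6 members were lower on it than on beta 1 and beta 2. Genes with a value on all 11 arrays sat at a median of -0.84 on beta 3. Centred on those genes, Chchd10 read -1.41 on beta 3. Chchd3 then read -0.18 there and -0.45 on beta 2, so it was no longer lowest on beta 3. In the authors' deposited table the mean ratio of Chchd10 was 0.12 in the double, 1.2 in the alpha and 1.2 in the beta knockout; the mean of beta 1 and beta 2 here was 1.20, and beta 3 would lower it to 0.832.

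The direct arrays set the double against the alpha knockout with no floxed RNA. Chchd10 had log2 ratios of -2.07, -1.87 and -1.69 there, a mean of -1.87 ± 0.19 (SD, n = 3) or 3.67-fold lower in the double knockout. It ranked 115 from the lowest of 11673 genes. The mean was less negative than the difference of the double and alpha means, from which it departed by 1.39. A fit with 1 shared dye effect, which the direct arrays make estimable, put Chchd10 at -4.46 in the double, -1.19 in the alpha and -1.10 in the beta knockout, and at -3.26 for the double over the alpha knockout. Grouping by the channel labels instead of the titles gave -1.17 for the double knockout.

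**Figure D1:**
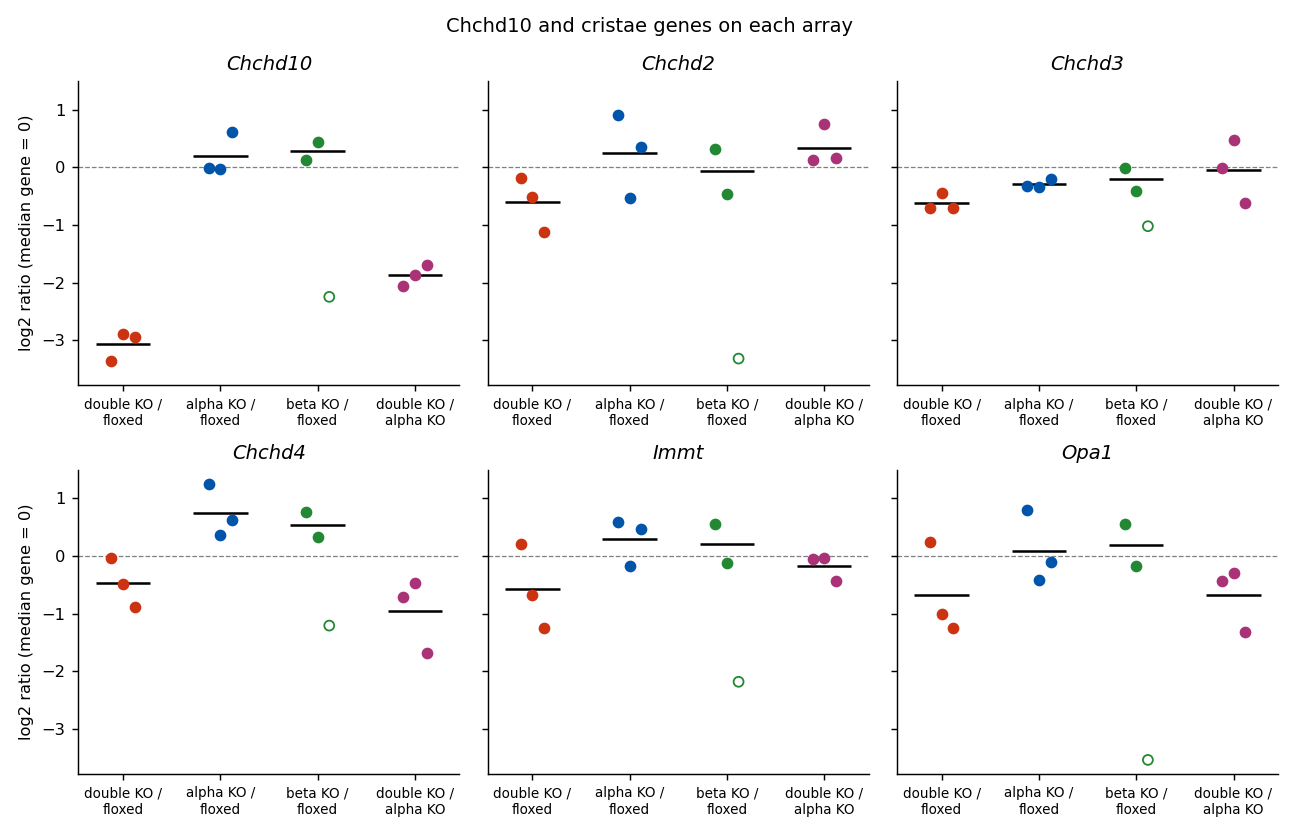
Log2 ratio of each of the 6 genes on each array (vertical axis, median gene of the array = 0), by array group (horizontal axis). Filled points are arrays in the fit, black bars their means, and open points beta 3, which was left out. Chchd10 lies between -3.36 and -2.90 on the double arrays, where the lowest value of the other members is -1.25.

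Chchd2, the paralogue of Chchd10, did not pass the test on the double arrays. Its log2 ratios were -0.18, -0.51 and -1.12 on double 1 to 3, with a mean of -0.60 ± 0.48 (SD, n = 3; 95% interval -1.27 to 0.06; limma, adjusted p = 0.333). Alpha 1 to 3 gave 0.91, -0.53 and 0.36, with a mean of 0.25 ± 0.72 (SD, n = 3; adjusted p = 0.602). The double and alpha arrays overlapped. On beta 1 and beta 2 they were 0.32 and -0.46 (adjusted p = 0.942), and beta 3 read -3.32. All 3 direct arrays were above 0, at 0.13, 0.75 and 0.15, with a mean of 0.34 ± 0.35 (SD, n = 3; 95% interval -0.32 to 1.01; adjusted p = 0.466). The mean of Chchd10 minus that of its paralogue was -2.46 on the double and -2.22 on the direct arrays, as a description.

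The 2 probes of Chchd2 gave -0.55 ± 0.49 and -0.66 ± 0.42 on the double arrays (A_52_P20354 and A_52_P932898; SD, n = 3), and so lay within their spread of each other. They parted on the direct arrays, at -0.09 ± 0.36 and 0.83 ± 0.32 (SD, n = 3), where neither passed the test across probes (adjusted p = 0.840 and 0.0842). Ratios of single probes are set against the array's median probe. The authors' deposited table held both, at mean ratios of 0.68 and 0.63 in the double knockout.

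Chchd3, a MICOS subunit that reaches from the inner towards the outer membrane, was below 0 on all 3 double arrays. Its log2 ratios were -0.70, -0.44 and -0.71, with a mean of -0.62 ± 0.15 (SD, n = 3). The interval of -1.12 to -0.11 lay below 0, but the value did not pass after adjustment over all genes (adjusted p = 0.196). Alpha 1 to 3 read -0.33, -0.33 and -0.21 (mean -0.29 ± 0.07, SD, n = 3; adjusted p = 0.408), and on beta 1 and beta 2 -0.01 and -0.40 (adjusted p = 0.749). Every double array was lower than every alpha array in these means over probes, but double 3 rests on probe A_51_P156902 alone. The direct arrays, at -0.00, 0.48 and -0.62, had a mean of -0.05 ± 0.55 (SD, n = 3; adjusted p = 0.905).

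The Chchd3 mean hid probes that went opposite ways. Probe A_51_P156902 gave -1.73, -0.72 and -0.68 on the double arrays, -1.41, -1.12 and -1.21 on the alpha arrays and -1.05 and -0.93 on beta 1 and beta 2. This probe put double 2 and double 3 above every alpha array, unlike the mean over probes. In the alpha knockout it fell, at a mean of -1.25 ± 0.15 (SD, n = 3; adjusted p = 0.00967 among 14902 probes, of which 24.1% passed), and it missed the threshold in the double knockout, at -1.04 ± 0.60 (SD, n = 3; adjusted p = 0.0678; 2.83% of probes passed). Probe A_52_P598478 gave 0.27 and -0.17 on double 1 and 2, was undefined on double 3, and averaged 0.61 ± 0.18 on the alpha arrays (SD, n = 3; adjusted p = 0.244). The first averaged 0.77 ± 0.58 on the direct arrays and the second -0.82 ± 1.11 (SD, n = 3; adjusted p = 0.0669 and 0.140; 19.9% of probes passed). The authors' deposited mean ratios in the double, alpha and beta knockout were 0.5, 0.45 and 0.5 for the first probe and 0.67, 1.64 and 1.51 for the second.

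Immt, the scaffold of MICOS, was spread on both sides of 0 on the double arrays. Its log2 ratios were 0.20, -0.67 and -1.25, with a mean of -0.57 ± 0.73 (SD, n = 3; 95% interval -1.20 to 0.06; adjusted p = 0.333). Those on the alpha arrays were 0.59, -0.17 and 0.46 (mean 0.30 ± 0.41, SD, n = 3; adjusted p = 0.501), and on beta 1 and beta 2 0.55 and -0.12 (adjusted p = 0.789). The double and alpha arrays overlapped, and the direct arrays lay near 0, at -0.05, -0.04 and -0.42 (mean -0.17 ± 0.22, SD, n = 3; adjusted p = 0.711). One probe, A_51_P485556, gave -0.79 ± 0.27 on the double arrays with little spread (SD, n = 3; adjusted p = 0.0870), and the other, A_52_P451245, gave -0.36 ± 1.20 (SD, n = 3; adjusted p = 0.654). The first averaged -0.42 ± 0.51 over the 2 alpha arrays it was used on and the second 0.67 ± 0.43 over 3 (SD).

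Opa1, the inner membrane fusion GTPase, had log2 ratios of 0.24, -1.01 and -1.25 on the double arrays. The mean was -0.67 ± 0.80 (SD, n = 3; 95% interval -1.43 to 0.08; adjusted p = 0.342), so 1 array stood above 0 and the others well below. Alpha 1 to 3 read 0.80, -0.41 and -0.11 (mean 0.09 ± 0.63, SD, n = 3; adjusted p = 0.873), which overlapped the double arrays, and on beta 1 and beta 2 0.56 and -0.18 (adjusted p = 0.848). All 3 direct arrays were below 0, at -0.44, -0.30 and -1.31, with a mean of -0.68 ± 0.55 (SD, n = 3; adjusted p = 0.202). The 3 probes in use had double means of -0.55, -1.02 and -0.46 and direct means of -0.68, -0.78 and -0.60, and 0 of them passed in either. The fourth probe, A_52_P153645, was undefined on 8 arrays and left out as dim or equal on 4.

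Chchd4, which oxidises twin CX9C proteins as they enter, was the only other member called in any comparison when probes were averaged per gene. Its log2 ratios on the direct arrays were -0.70, -0.47 and -1.69, with a mean of -0.95 ± 0.65 (SD, n = 3) or 1.93-fold lower in the double than in the alpha knockout (adjusted p = 0.0499). All 3 arrays were below 0. On the double arrays against floxed RNA it read -0.03, -0.48 and -0.88 (mean -0.46 ± 0.43, SD, n = 3; 95% interval -1.09 to 0.16; adjusted p = 0.428), and on the alpha arrays 1.26, 0.37 and 0.62 (mean 0.75 ± 0.46, SD, n = 3; adjusted p = 0.0981, or 0.0498 with the replicate number as a block). Every double array was thus below and every alpha array above the median gene, and beta 1 and beta 2 were above it as well, at 0.76 and 0.33 (adjusted p = 0.464). Leaving out 1 array at a time kept the call in 2 of 11 fits, those without double 1 or without double 3, and the adjusted p reached 0.297 in the others.

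With Chchd10 set aside, 0 of the 5 other genes were called on the double arrays, where 1.94% of all genes were called, 1.34% as lower and 0.6% as higher. The alpha arrays called 0 of 5, against 14.9% of all genes (4.97% lower, 9.89% higher), and the beta arrays 0 of 5, against 0.00857%. The direct arrays called 1 of 5, against 13.2% of all genes (8.66% lower, 4.57% higher). Their fitted means on the double arrays ran from -0.67 to -0.46, below the median of all genes at -0.02, and each fell between the 12.1 and the 19.9 percentile of all genes. The mean of Chchd10 minus each of theirs ran from -2.60 to -2.39 there. Under the alternatives listed for the processing, 0 of the 5 were called on the double arrays in any.

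Of the 5 genes, 4 shared an order of the double arrays that Chchd10 did not have. Chchd2, Chchd4, Immt and Opa1 were each highest on double 1 and lowest on double 3, with gaps between these arrays of 0.85 to 1.49 on the log2 scale. These are means over probes. Probes A_51_P485556 of Immt and A_52_P242724 of Opa1 were instead lowest on double 2, at -1.01 and -1.44, against -0.88 and -1.30 on double 3. Chchd10 was lowest on double 1, and Chchd3 differed by 0.01 between double 1 and double 3. That gap of Chchd3 sets unlike probes against each other, because only A_51_P156902 was defined on double 3. Taken alone, this probe was lowest on double 1, at -1.73, against -0.72 and -0.68 on double 2 and double 3. Genes with a value on all 11 arrays sat at a median of 0.11, 0.00 and -0.12 on double 1 to 3, in the same order as the 4 genes but over a smaller range, and their part in it was not tested.

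The genes most like Chchd10 over the 11 arrays were sought among 8754 genes with a value on each. The 8 with the highest correlation of log2 ratios were Ndufa8 at 0.985, Cox4i1 at 0.942, Atp5b at 0.934, Ndufa9 at 0.916, Atp5a1 at 0.916, Vdac1 at 0.914, Acot7 at 0.901 and Uqcrc1 at 0.900. They encode subunits of complexes I, IV and III and of ATP synthase, the outer membrane channel VDAC1 and, in Acot7, an acyl-CoA thioesterase. Ndufa8, the closest, is a twin CX9C subunit of complex I, and its mean log2 ratios were -1.60 ± 0.12 on the double, -0.00 ± 0.14 on the alpha and -1.08 ± 0.17 on the direct arrays (SD, n = 3). Cox4i1, a core-associated subunit of cytochrome c oxidase, averaged -1.78 ± 0.32, 0.15 ± 0.38 and -0.89 ± 0.26 on the same arrays (SD, n = 3). The order of Chchd10 among them is that of size: it was lower than each of the 8 on the double arrays. The correlations are descriptions over arrays that share floxed or alpha knockout RNA. They use the double array values by which Chchd10 was chosen, so the ranking favours genes that are low on the double and direct arrays. That these 8 genes are low there is thus not a separate result.

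**Figure D2:**
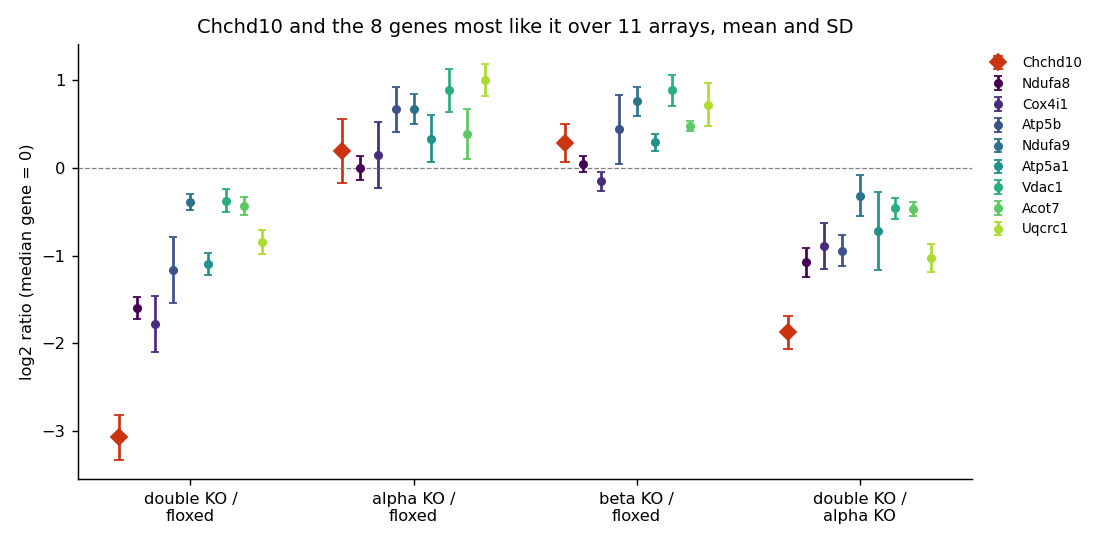
Mean log2 ratio and SD over arrays (vertical axis, median gene = 0) for Chchd10 and the 8 genes with the highest correlation to it over 11 arrays, by array group (horizontal axis; 3 arrays each, 2 for the beta knockout). All 9 genes are below 0 on the double and direct arrays, and Chchd10 is the lowest at -3.07 and -1.87. The correlation uses these same values, so the ranking favours genes that are low on these arrays.

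The members themselves were further from Chchd10 in this order. Chchd4 stood at a correlation of 0.68 (rank 320), Immt at 0.60 (rank 739), Opa1 at 0.50 (rank 1575), Chchd2 at 0.36 (rank 2858) and Chchd3 at 0.28 (rank 3502).

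**Figure D3:**
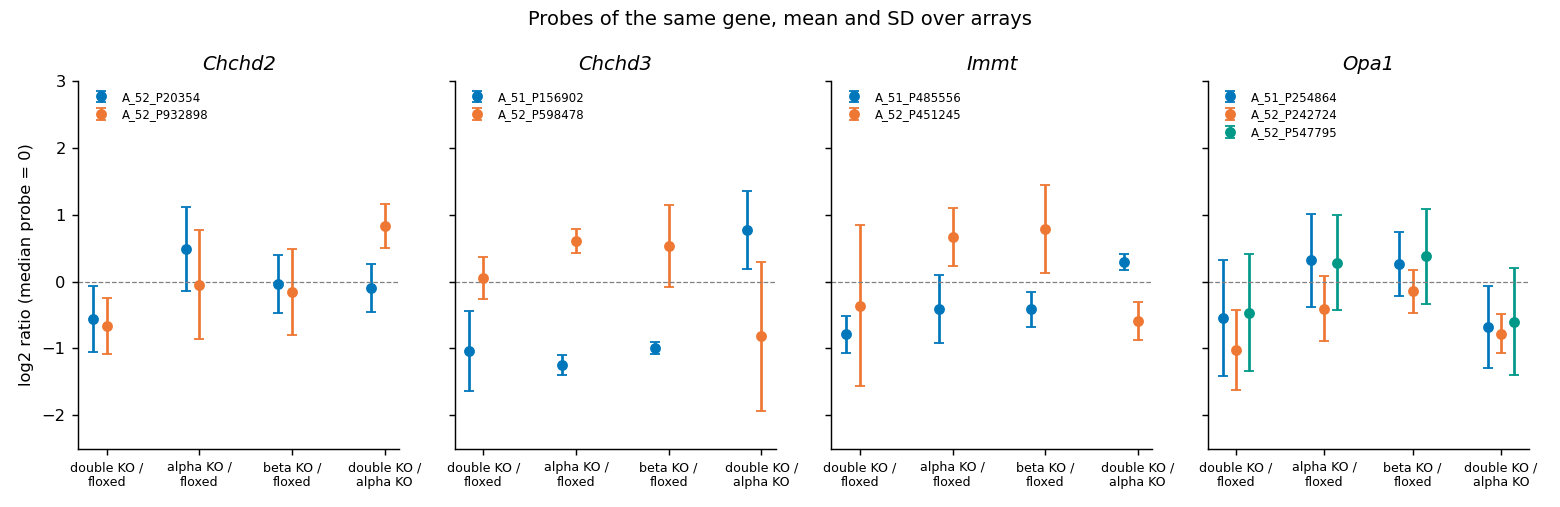
Mean log2 ratio and SD over arrays (vertical axis, median probe of the array = 0) for each probe in use of the 4 members with several probes, by array group (horizontal axis). The 2 probes of Chchd3 sit at -1.25 and 0.61 on the alpha arrays, whereas the 2 of Chchd2 sit at -0.55 and -0.66 on the double arrays.

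Other genes of the same compartment were counted in lists chosen for their roles. Of 18 other twin CX9C proteins, 2 fell and 0 rose on the double arrays, where 1.34% of all genes fell, with a list median of -0.25. They were Cox6b1, a subunit of cytochrome c oxidase, at -1.85 ± 0.24 (SD, n = 2, the double arrays with a usable value; adjusted p = 0.0163), and Ndufa8 (adjusted p = 0.00241). Both are subunits of respiratory complexes, as are Ndufb7, Ndufs5 and Uqcrh, which did not pass, at -0.35, -0.14 and -0.72 (adjusted p = 0.415, 0.859 and 0.136). In the alpha knockout 2 fell, the copper chaperone Cox17 by 2.03 and Chchd7 by 0.96 on the log2 scale (adjusted p = 0.00499 and 0.0117), and 0 rose, against 4.97% of all genes lower and 9.89% higher. On the direct arrays, with 8.66% of all genes lower and 4.57% higher, Cox6b1 and Ndufa8 fell again, by 1.15 and 1.08, and the MICOS subunit Chchd6 and the mitochondrial ribosomal protein Chchd1 rose, by 1.24 and 1.10 (adjusted p = 0.0239 and 0.0198).

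Of the other MICOS subunits and their outer membrane partners, 8 of 9 were tested, and the shares of all genes called were 1.94% on the double, 14.9% on the alpha and 13.2% on the direct arrays. On the double arrays 1 fell, the small subunit gene Micos13 at -1.02 ± 0.30 (SD, n = 3; adjusted p = 0.0369), and the list median was -0.29. In the alpha knockout 1 rose, Mtx1, which encodes the outer membrane protein metaxin 1, at 0.67 ± 0.21 (SD, n = 3; adjusted p = 0.0419). Chchd6 rose on the direct arrays, as given above, and Mtx1 fell by 1.16 (adjusted p = 0.00681).

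Of the other import genes of the intermembrane space, 6 of 7 were tested, and 1 was called in each of the double, alpha and direct comparisons, against the same shares of all genes. Timm8a1, a small Tim chaperone, fell on the double arrays at -1.09 ± 0.01 (SD, n = 3; adjusted p = 0.0423). Timm13, whose protein forms a complex with that of Timm8a1, rose on the alpha arrays by 1.41 and fell on the direct arrays by 1.29 (adjusted p = 0.0115 and 0.0172). Gfer, which reoxidises CHCHD4, was at 0.31 on the double arrays (adjusted p = 0.766) and did not pass in any comparison. The medians of the list were -0.40, -0.18 and -0.18 on the double, alpha and direct arrays.

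Of 12 genes listed for OPA1 processing and inner membrane scaffolds, 11 were tested. On the double arrays 0 passed, where 1.94% of all genes were called, with a list median of -0.10. On the direct arrays 4 of the 11 fell and 0 rose, where 8.66% of all genes fell, with a median of -1.12 against -0.12 for all genes: Stoml2, a stomatin-like scaffold, by 2.00 (SD 1.39), the protease subunit Afg3l1 by 1.33 (SD 0.48), and the prohibitins Phb by 1.17 (SD 0.30) and Phb2 by 1.12 (SD 0.44; n = 3 each; adjusted p from 0.00726 to 0.0205). The other 7 did not pass there, and 2 of them were above 0. Stoml2 and Phb2 rose on the alpha arrays, where 9.89% of all genes rose, by 1.59 and 1.07 (adjusted p = 0.0285 and 0.0223). The list median was 0.66 on the alpha arrays, with 1 of 11 below 0, against a median of 0.08 for all genes. It was 0.50 on the beta arrays, with 0 of 11 below 0, against 0.05 for all genes. The endothelial markers Cldn5 and Cdh5 also fell on the direct arrays, by 1.93 and 1.21 (adjusted p = 0.00964 and 0.0205), while Tek, the third one tested, was at 0.06. The muscle markers Acta1 and Tnnt3 rose there, by 1.86 and 1.37 (adjusted p = 0.00443 and 0.00636), and Ckm was at -0.49 (adjusted p = 0.469). The part of these markers in the values of the list was not tested.

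Among 7 genes of fusion and fission, 1 was called on the double, 2 on the alpha and 1 on the direct arrays, against 1.94%, 14.9% and 13.2% of all genes. The list medians were -0.35, 0.21 and -0.75 on these arrays. Mtfp1, which promotes fission from the inner membrane, fell on the double arrays at -1.80 ± 0.14 and on the alpha arrays at -0.90 ± 0.24 (SD, n = 3; adjusted p = 0.00237 and 0.0169). Fis1, an outer membrane fission protein, rose on the alpha arrays by 1.70 and fell on the direct arrays by 1.42 (adjusted p = 0.00389 and 0.00776). The mitofusins Mfn1 and Mfn2, which fuse outer membranes, were at 0.29 and -0.62 on the double arrays (adjusted p = 0.760 and 0.291) and at -1.21 and -0.86 on the direct arrays (adjusted p = 0.0716 and 0.0680). Of 5 genes listed for the ATP synthase dimers at cristae edges, 4 were tested. Atp5k fell on the double and alpha arrays, by 1.87 and 0.91 (adjusted p = 0.00398 and 0.0296). All 4 were below 0 on the double arrays, as were 52.1% of all genes, with a list median of -0.81 against -0.02 for all genes. The list medians were -0.31, -0.42 and 0.10 on the alpha, beta and direct arrays.

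Cardiolipin is the lipid of the inner membrane, and 7 of 9 genes for its synthesis and transport were tested. On the double arrays 0 passed, where 1.94% of all genes were called, and the list median was -0.04. Ptpmt1 was at -0.80 ± 0.14 there and Taz at 0.79 ± 0.88 (SD, n = 3; adjusted p = 0.0882 and 0.209). The list medians were 0.78 on the alpha and 0.01 on the direct arrays. In the alpha knockout 3 of 7 were called, against 14.9% of all genes: the remodelling enzymes Lclat1 and Taz rose by 1.69 and 1.36 (adjusted p = 0.0217 and 0.0156) and the synthesis enzyme Tamm41 fell by 0.65 (adjusted p = 0.0354). Tamm41 and Pgs1 rose on the direct arrays, where 4.57% of all genes rose, by 1.00 and 0.78 (adjusted p = 0.00855 and 0.0230). On the beta arrays 0 genes of any of these lists passed, where only 1 of all 11673 genes (0.00857%) was called.

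Leaving out 1 array at a time tested how far these calls of the lists rest on it. On the double arrays the calls of Ndufa8, Mtfp1 and Atp5k held in all 11 fits and that of Cox6b1 in the 9 that could test it, but that of Timm8a1 held in 2 and that of Micos13 in 1. On the alpha arrays Cox17 and Fis1 held in all 11. The other 10 calls there held in 4 to 9 and were lost without alpha 1, alpha 2 or alpha 3, that of Timm13 not without alpha 2. Those of Mtx1 and Tamm41 were also lost without either beta array, and that of Mtx1 without double 2 or direct 2 as well. On the direct arrays Mtx1, Ndufa8 and Fis1 held in all 11, and the other 10 were lost only without a direct array: without direct 2 or direct 3 for Chchd6, Chchd1, Timm13, Afg3l1 and Phb2, without direct 2 for Phb and Tamm41, without direct 3 for Cox6b1 and Stoml2, and without any of the 3 for Pgs1. Under 11 other processing alternatives the double calls of Ndufa8, Mtfp1 and Atp5k each held in 6, and that of Cox6b1 in 5 of the 10 that could test it. The alpha calls of Cox17 and Fis1 held in 9 and 8 of the 11, and the direct calls of Mtx1, Ndufa8 and Fis1 in 8, 7 and 8.

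**Figure D4:**
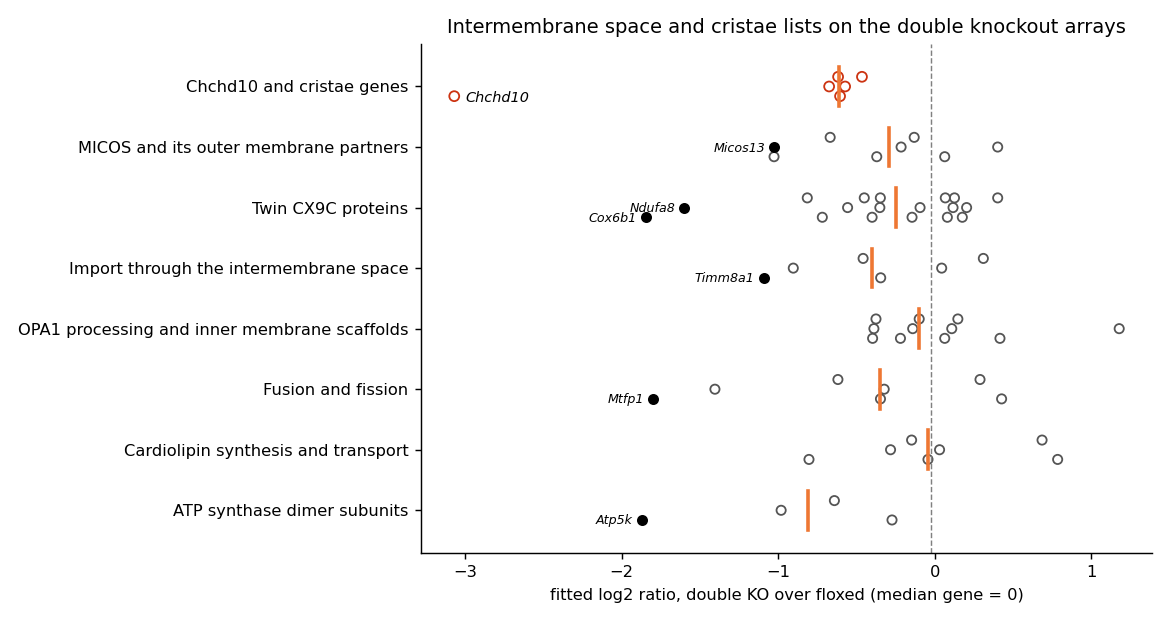
Fitted log2 ratio of each tested gene on the double arrays (horizontal axis, median gene = 0), by list (vertical axis). Filled points passed the test over all genes, orange bars are list medians and the dashed line is the median of all genes; the 6 members, drawn in red, are shown with no test. Chchd10 at -3.07 lies lower than any gene of the lists, the lowest of which is Atp5k at -1.87.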

How the data were processed

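The authors deposited 1 linear Cy5 over Cy3 ratio per probe and array in a value table, on Agilent arrays. Each array's ratios are multiples of 1 factor. The processing before that is not given in the sources used here. They also deposited a down and an up table of mean ratios ± SEM, which hold folds of 0.7 or less and of 2 or more, per the labels. Ratios of 0 or below and the repeated maximum of an array were taken as undefined. Ratios that, divided by the array factor, equalled m/n with m and n from 1 to 10, within 0.0006, were left out as dim or equal signals. Log2 was taken, probes of 1 symbol were averaged per gene, and each array was centred on its median gene.

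Limma 3.58.1 in R 4.3.3 gave each title group a mean with 1 shared spread over 11 arrays. A gene needed a value on 2 arrays of every group, and p-values were two-sided and Benjamini-Hochberg adjusted over 11673 genes at 0.05. The dyes were never exchanged. The ratio against 0 leaves out the spread of controls, and arrays may not be separate mice, so p-values measure the spread between arrays, whose number limits the precision. The fit was tested on simulated data.

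The members and the gene lists were chosen with earlier results of these data known, so they are described by counts and medians. Named were the members, up to 4 genes of a list with the largest change past the threshold, otherwise up to 2 as values, the 8 genes most like Chchd10, and both targeted genes. Single genes singled out beyond that rule are Gfer, Mfn1, Mfn2, Ndufb7, Ndufs5 and Uqcrh, and on the direct arrays Tek and Ckm. Replicate numbers of the titles entered only as an alternative. Alternatives were keeping beta 3, no centring, keeping dim ratios, all 3 together, channel labels, a replicate block, a dye term, the probe median, array weights, a value on every array, leaving out each array and, chosen after seeing the data, another centring and each probe on its own. Some marker genes are not reported here.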

Additional observations from a re-analysis of the deposited data

Results flagged for a closer look

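Every double array was below 0 for Chchd10 and both beta 1 and beta 2 were above it, and the double minus the beta mean was -3.35 on the log2 scale. That value helped to choose the gene and is given with no test. With beta 3 kept the difference was -2.51. Chchd4 was below 0 on every double array and above 0 on every alpha array, a difference of -1.21 in the means, which was not tested itself; the direct arrays, which compare the same genotypes, gave -0.95 (SD 0.65, n = 3). Against the beta arrays Chchd4 differed by -1.01, which did not pass limma's test (adjusted p = 0.638).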

How the results depend on the processing

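Of 840 log2 ratios of members under alternatives, 810 kept their side of the threshold and, where called, their direction, 26 lost and 3 gained a call, and 1 turned, Chchd10 in the alpha knockout at -1.19 with the dye term. These counts include Chchd10, which was chosen for its fall, and are no test of it. Most of the 840 were not called in the fit above and so had no call to lose. A loss was possible only for Chchd10 (double, direct, and double minus beta) and for Chchd4 on the direct arrays. Each of these values had 22 alternatives. The direct call of Chchd4 held in 2 of 11 fits without 1 array and in 5 of 11 others. The fall of Chchd10 in the double knockout ran from -3.16 to -2.92 without 1 array. The other results are counts of genes called, which were 226 double, 1735 alpha, 1 beta, 1544 direct and 1 for the double minus the beta group. The 1 gene of the double minus the beta group is Chchd10, whose value there helped to choose it. That count is thus not a separate result. Keeping beta 3 gave 20, 141, 0, 136 and 0, and keeping all 12 arrays, dim ratios and no centring gave 0, 4, 0, 0 and 0. Without centring alone 37 double, 184 alpha and 0 double minus beta genes were called. Keeping dim ratios gave 72 double and 0 beta genes, the channel labels 0 double, 83 beta, 883 direct and 0 double minus beta genes, and the dye term 2 double, 569 alpha, 0 beta and 10 direct genes. Array weights gave 588 double, 4477 alpha, 372 beta and 18 double minus beta genes, and a value on every array 4 double minus beta genes. Without 1 array the counts ran from 60 to 267 double, 252 to 2052 alpha, 0 to 1 beta, 292 to 1690 direct and 0 to 3 double minus beta genes. Among the members other than Chchd10, the 1 direct call, Chchd4, became 0 with beta 3, dim ratios or all 12 arrays kept, with the channel labels, the dye term or array weights, and ran from 0 to 1 without 1 array; array weights and the replicate block gave 1 alpha call, Chchd4 in both. The replicate block gave 269 double, 2270 alpha, 0 beta and 1989 direct genes, and 10 of 11 arrays correlated best with an array of their own number, a hint from the data and not the design: 9 of 15 same-numbered pairs correlated over 0.1, and the other 6 each hold a direct array. Scaling moved the split of calls: 1155 higher and 580 lower alpha genes became 97 and 87 without centring and 903 and 848 centred on genes with a value on all 11 arrays, and 533 and 1011 direct genes became 42 and 1840, and 780 and 821. The direct minus the difference of the double and alpha groups called 0 genes with limma (447 at an unadjusted p under 0.05). The causes of these changes were not tested. Undefined and dim ratios limit which genes could be measured.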
